A study of Mus musculus with 4 samples.

Results

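The genes described here encode molecular chaperones of the cytosol and of mitochondria, the heat shock factors that control them, and chaperones, folding enzymes and regulators of the unfolded protein response of the endoplasmic reticulum (ER). They were chosen by name, as 34 genes. Of these, 32 had at least 1 probe set on the array that names that gene alone, out of 18193 genes so measured in the series; the probe set with the highest mean signal stood for each gene. Hsp90ab1 and Hsf1 were not analysed here. All 32 passed the filter on dim values, so no member was lost to it.

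RNA came from CD4 T cells of 2D2 Tg mice, whose T cells express a receptor transgene directed at myelin oligodendrocyte glycoprotein, and was read on 4 Affymetrix mouse expression arrays. The transgene is shared by both groups, and the groups differ in the microRNA gene Mir146: wildtype (2 arrays) and miR-146a-deficient (2 arrays). Naive cells were sorted and stimulated for 3 days on plate-bound anti-CD3 at 5 µg/ml with anti-CD28 at 1 µg/ml, so every value is that of activated cells, and no unstimulated cells were analysed here as a baseline. The labels used here give neither the age of the mice nor the way the deletion was made, and the deletion was not checked here on its own transcript. The labels call the replicates biological without saying whether they were separate mice or cultures, so the p-values measure only the spread between these samples. In bulk RNA, fewer cells of a type and less RNA per cell cannot be told apart.

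Values are MAS5 signals, a linear brightness scaled to the same trimmed mean on every array. Group values are means ± SD (n = 2 arrays). Differences are deficient minus wildtype on the scale log2(signal + 14.7), ± SE from limma's moderated fit, and p-values were adjusted over all 12821 genes tested. T cell markers were compared between genotypes for 10 genes (of 12 listed), among them Cd3d, Cd3e, Cd3g, Cd4 and Cd28. Differences lay between -0.16 and 0.10, and the genotypes overlapped for all 10. Cd3d read 16900 ± 1181 in the wildtype and 17523 ± 200 in the deficient arrays. Cd4 read 630 ± 36 and 594 ± 186, and the CD8 marker Cd8b1 read 737 ± 42 and 766 ± 173. Alike levels between genotypes do not show which cells were present, so the labelled CD4 identity was not tested.

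HSP70 and HSP90 proteins bind unfolded or immature clients and release them through cycles of ATP hydrolysis, with HSP40 (DNAJ) proteins delivering clients and HSP110 proteins exchanging the nucleotide. Heat shock factors raise the cytosolic set when unfolded proteins accumulate. In the ER, the same chemistry is carried out by BiP (Hspa5) and GRP94 (Hsp90b1), and the sensors IRE1, ATF6 and PERK raise these chaperones when folding falls behind. IRE1 does so by splicing Xbp1 messenger RNA. Activated lymphocytes enlarge their protein folding capacity as they grow, and this machinery is most developed in antibody-secreting plasma cells.

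The microRNA that the groups differ in is shown first, with its seed (bases 2 to 8) in capitals. Its close relative miR-146b carries the same seed and lies elsewhere in the genome. RefSeq places the mature miR-146a-5p at chr11:43374435-43374456 (minus strand) and miR-146b-5p at chr19:46342790-46342811 (plus strand) of GRCm38.p6.
mmu-miR-146a-5p: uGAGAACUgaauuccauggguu
mmu-miR-146b-5p: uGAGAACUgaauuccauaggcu

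Some of the ER genes also share the ER stress response element in the promoter, where ATF6 is known to act together with the CCAAT-binding factor NF-Y. The choice by name did not read the promoters. ATF6 is however a sensor of the response the genes were named for, so the element is not independent of the choice. RefSeq promoters of GRCm38.p6 were matched for 26 of the 34 genes, as 31 promoters, and the 250 bases before each transcript start were searched on both strands. The element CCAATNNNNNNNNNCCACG was found in the promoters of 7 of the 26 genes: Hspa5, Hsp90b1, Calr, Canx, Pdia6, Dnajc3 and Creld2. Counted in promoters, it was found in 7 of the 31 and in 37 of all 32851, a share of 0.113% that includes the members. All 7 genes are ER genes, and Hsp90b1 has a copy on each strand. Each copy is printed on the strand that reads CCAAT first, with 12 bases on either side and the fixed letters in capitals, to show the spacer between the fixed letters and the sequence around them; the capitals are alike because the search required them.
Hspa5, chr2:34772013-34772055 (plus): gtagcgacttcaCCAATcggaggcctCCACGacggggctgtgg
Hsp90b1, chr10:86705626-86705668 (minus): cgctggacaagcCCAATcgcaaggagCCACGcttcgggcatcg
Hsp90b1, chr10:86705521-86705563 (plus): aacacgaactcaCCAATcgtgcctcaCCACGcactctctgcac
Calr, chr8:84847063-84847105 (plus): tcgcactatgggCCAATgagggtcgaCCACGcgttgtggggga
Canx, chr11:50325788-50325830 (minus): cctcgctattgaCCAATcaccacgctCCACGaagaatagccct
Pdia6, chr12:17266479-17266521 (plus): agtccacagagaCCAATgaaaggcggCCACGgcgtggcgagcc
Dnajc3, chr14:118937815-118937857 (plus): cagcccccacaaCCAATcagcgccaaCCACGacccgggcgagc
Creld2, chr15:88819508-88819550 (minus): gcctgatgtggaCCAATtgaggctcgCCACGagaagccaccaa
The nearest base of the element lay 47 bases before the start in Hspa5 and 194 before it in the farther copy of Hsp90b1. A second form, ATTGGNCCACG, was found among the members only in Herpud1, 42 bases before its start, and in 10 of all promoters (0.0304%).
Herpud1, chr8:94386365-94386399 (plus): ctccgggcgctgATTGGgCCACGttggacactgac

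The Hspa5 promoter is given whole, because BiP is the usual gauge of the response; it covers chr2:34771840-34772089 on the plus strand, up to the base before the start.
Hspa5 promoter: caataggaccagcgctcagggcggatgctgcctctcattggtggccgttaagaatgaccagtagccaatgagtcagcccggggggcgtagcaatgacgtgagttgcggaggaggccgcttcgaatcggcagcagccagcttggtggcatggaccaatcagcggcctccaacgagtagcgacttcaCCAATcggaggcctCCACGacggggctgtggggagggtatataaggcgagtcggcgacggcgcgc
For the heat shock genes the perfect heat shock element GAANNTTCNNGAA was searched in the same way. It was found in 153 of all promoters (0.466%) and, among the 26 genes, in Hspd1 and Hspe1. These are neighbours transcribed away from each other, and the 215 bases between their starts at chr1:55087933-55088147 hold overlapping copies of the element on both strands, shown in capitals on the plus strand, which is the Hspe1 strand.
Hspd1-Hspe1: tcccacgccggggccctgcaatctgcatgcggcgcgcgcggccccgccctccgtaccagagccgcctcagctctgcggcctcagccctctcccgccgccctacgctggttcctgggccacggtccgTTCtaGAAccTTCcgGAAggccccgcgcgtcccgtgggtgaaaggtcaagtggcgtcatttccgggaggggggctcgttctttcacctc
A match of letters is a description of the sequence, and binding was not measured. The 7 genes with the ER stress response element had differences of both signs: their differences between genotypes ran from -0.13 (Canx) to 0.09 (Creld2), with a median of -0.00, and 0 of the 7 passed the test described next.

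None of the 32 chaperone and unfolded protein response genes passed the test between genotypes. With limma, 0 of 32 had an adjusted p below 0.05, where 0.179% of all tested genes did (0.172% higher and 0.0078% lower), and 0 of 32 had an unadjusted p below 0.05, where 5.26% did. Limma without an intensity trend called 0 of all 12821 genes, and hence none of these. The differences ran from -0.17 (Sel1l) to 0.26 (Hspa1a), with a median of 0.07, beside a median of -0.01 over all tested genes. Of the 32, 24 (75.0%) lay higher and 8 lower in the deficient arrays, where 47.5% of all tested genes and 50.2% of those at least as bright as the dimmest member lay higher. The members' split depended on the scaling and on the probe set: it was 30 and 2 after median centring of the arrays, 18 and 14 when the probe sets of a gene were averaged, and 16 and 16 without miR-146a-deficient replicate 1.

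The intervals say how large a difference these arrays leave room for. The 95% interval of each of the 32 differences lay within a 2-fold change in either direction, which held for 98.3% of the 8521 tested genes at least as bright as the dimmest member. For 31 of the 32 it lay within 1.5-fold, against 84.6% of those genes. The exception was Hspa1a, with an upper bound of 1.67-fold. The genes compared were matched to the members only by a lower limit of brightness. Their median SE was 0.13, beside 0.10 for the 32. The intervals hold for each gene on its own and not for all 32 together, and they rest on 2 arrays a genotype and on the spread borrowed from other genes.

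**Figure D1:**
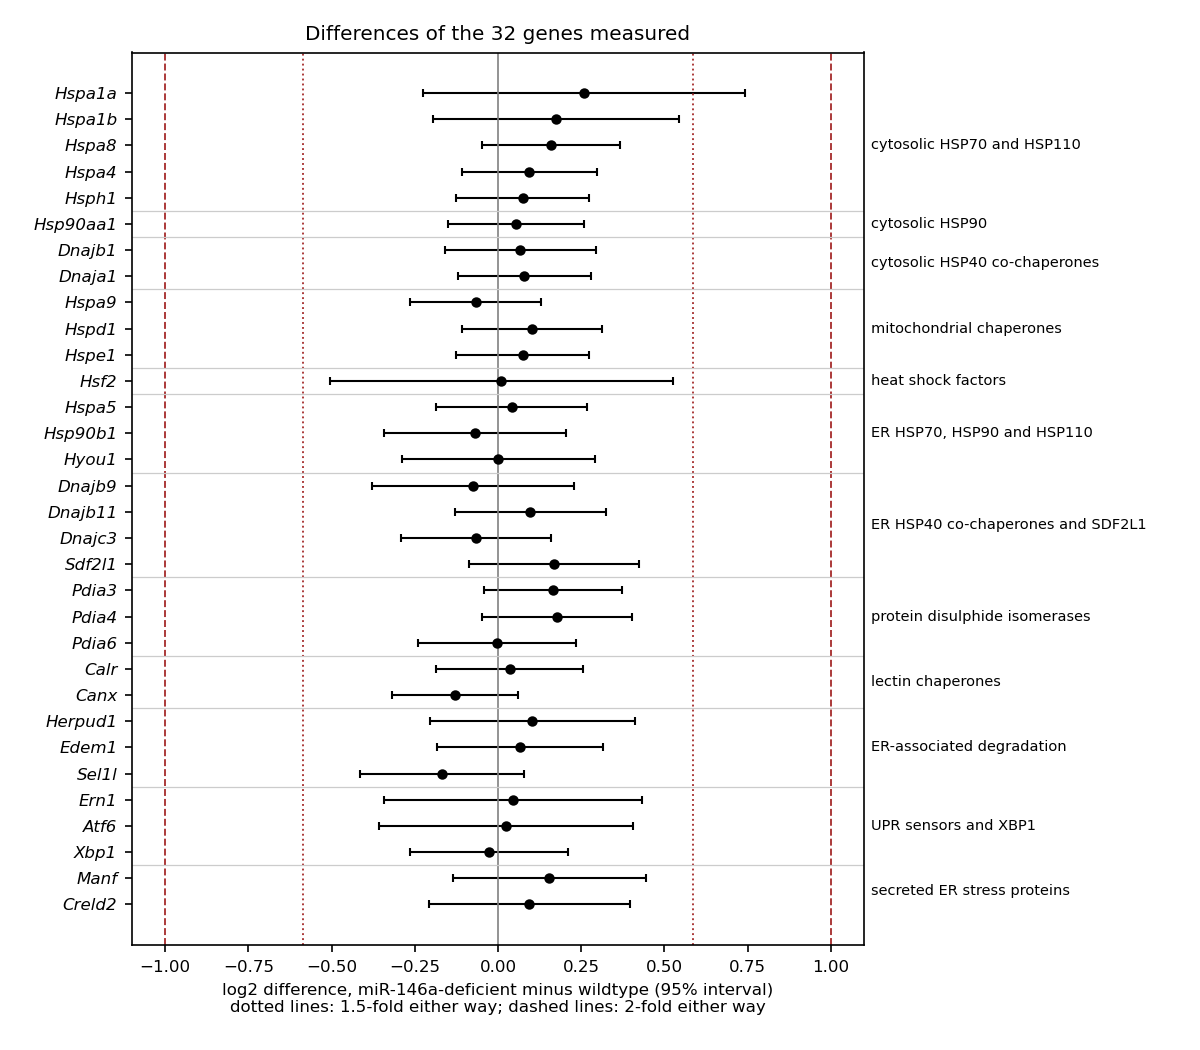
Log2 difference (miR-146a-deficient minus wildtype, horizontal axis) of each of the 32 genes, grouped by role, with its 95% interval from limma's moderated fit. Every interval includes 0 and lies inside the dashed lines at 2-fold; only that of Hspa1a crosses the dotted lines at 1.5-fold.

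In the probe sets used, the cytosolic HSP70 genes lay a little higher in the deficient arrays, and the 95% interval of each included 0. Hspa8, the constitutive HSP70 (HSC70), had signals of 34919 and 39359 in the wildtype and 42472 and 40408 in the deficient arrays. The genotypes did not overlap, as for 33.6% of all tested genes, but the difference of 0.16 ± 0.09 was smaller than that between the wildtype arrays (0.17). Its interval ran from -0.05 to 0.37 (adjusted p = 0.963). With the probe sets of Hspa8 averaged, the difference was -0.16. Hspa1a and Hspa1b are the neighbouring, nearly identical genes of stress-inducible HSP70, and probe sets for either may read both. Hspa1a gave 143 and 185 in the wildtype and 185 and 211 in the deficient arrays, a difference of 0.26 ± 0.21. Hspa1b gave 720 and 580 against 651 and 822, a difference of 0.17 ± 0.16. The pair did not order the arrays alike: wildtype replicate 1 was the lowest array for Hspa1a, and wildtype replicate 2 for Hspa1b.

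Hspa4 and Hsph1 encode HSP110-type nucleotide exchange factors. Hspa4 stood at 11042 ± 194 in the wildtype and 11802 ± 825 in the deficient arrays (difference 0.09 ± 0.09). Its other, dimmer probe sets all lay lower, between -0.47 and -0.19. Hsph1 read 4114 and 4176 against 4336 and 4389, where the arrays of each genotype lay close together and apart from the other genotype; the difference was 0.07 ± 0.09, less than its SE, to which limma lends the spread of genes of like brightness. Hsp90aa1, the stress-inducible cytosolic HSP90, had 22227 and 20268 in the wildtype and 22827 and 21292 in the deficient arrays. These overlapped, with a difference of 0.05 ± 0.09 (adjusted p = 0.987). Among the HSP40 co-chaperones, Dnaja1 gave 11471 and 12413 against 12297 and 12914 (0.08 ± 0.09), and Dnajb1, the partner of inducible HSP70, gave 1823 and 1825 against 1869 and 1956 (0.07 ± 0.10).

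Mitochondrial chaperones gave no common direction. Hspd1, the mitochondrial chaperonin HSP60, gave 20168 and 20560 in the wildtype and 23314 and 20474 in the deficient arrays, so that deficient replicate 1 alone stood apart (difference 0.10 ± 0.09). Hspe1, its lid HSP10, gave 17004 and 18756 against 18796 and 18805 (0.07 ± 0.09), and there it was wildtype replicate 1 that stood apart. The 2 genes share the promoter stretch printed above, and the order of their 4 arrays differed. Hspa9, the mitochondrial HSP70 that pulls imported proteins across the membrane, lay at 14880 ± 842 against 14190 ± 136 (-0.07 ± 0.09).

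Hsf2, the only heat shock factor gene measured here, had the widest interval on the lower side. It gave 250 and 230 in the wildtype and 193 and 302 in the deficient arrays, which lay on either side of the wildtype pair. The difference was 0.01 ± 0.23, with an interval from -0.51 to 0.53 (adjusted p = 0.999), and the deficient arrays differed from each other by 0.61.

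**Figure D2:**
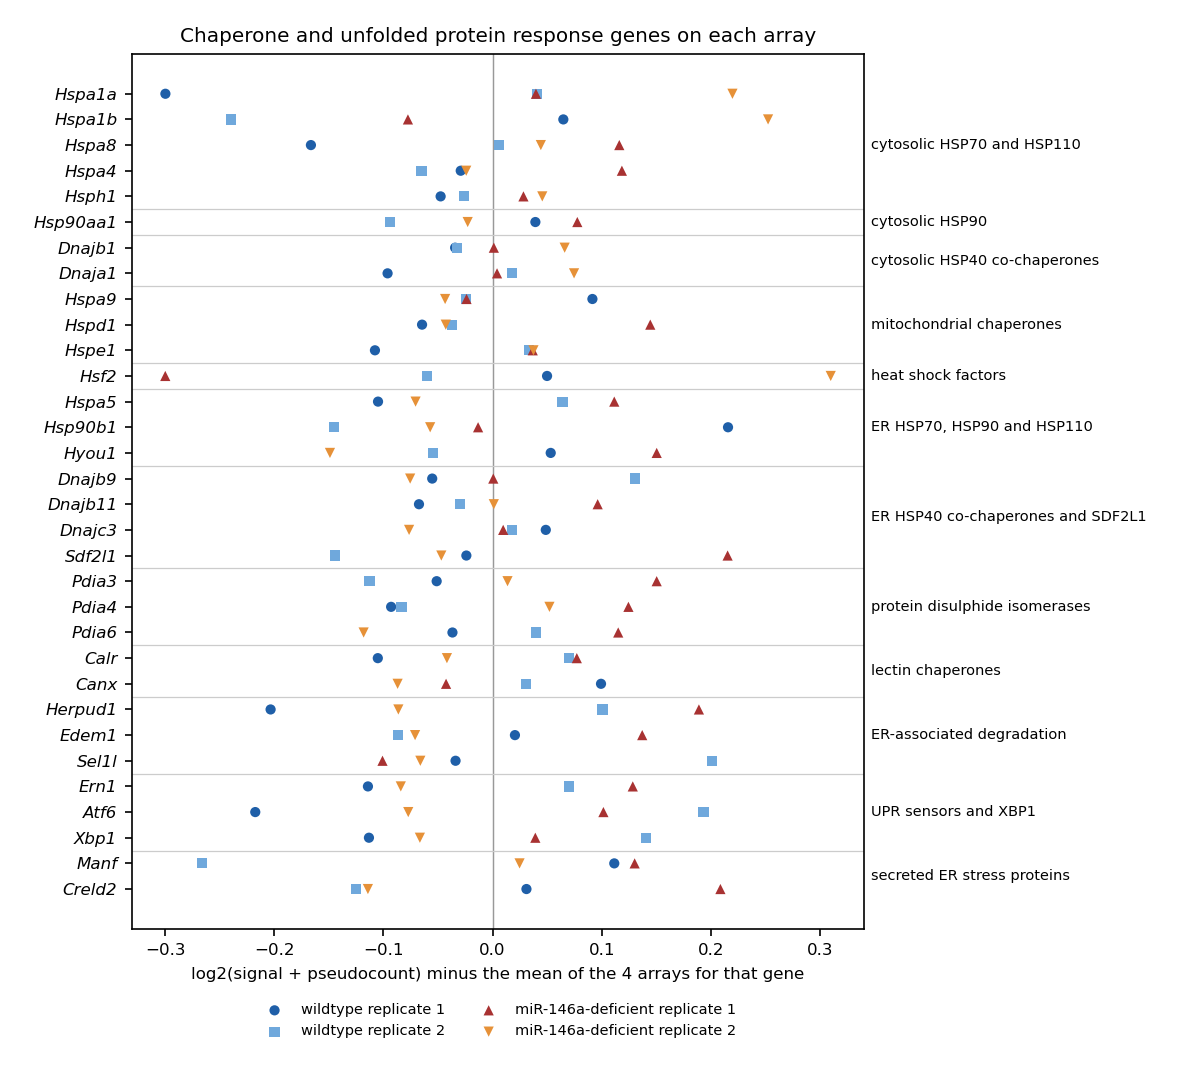
Each of the 32 genes on each of the 4 arrays, as log2(signal + pseudocount) minus that gene's mean over the arrays (horizontal axis); colour and shape give the array. The genotypes overlap for most genes, and deficient replicate 1 (upward triangles) lies to the right of deficient replicate 2 (downward triangles) in 19 of the 20 ER genes.

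The main ER chaperones did not differ beyond their replicates. Hspa5, which encodes BiP, the ER HSP70 and the usual gauge of the unfolded protein response, gave 22903 and 25752 in the wildtype and 26611 and 23456 in the deficient arrays. Each genotype had a high and a low array, and the ranges overlapped. The difference was 0.04 ± 0.10, with an interval from a 0.879-fold to a 1.20-fold level (adjusted p = 0.992). Hsp90b1, which encodes GRP94, an ER HSP90 that folds integrins and Toll-like receptors, gave 13288 and 10346 against 11337 and 10997; both deficient values lay between the wildtype values (-0.07 ± 0.12). Hyou1, an ER HSP110, gave 1614 and 1497 against 1728 and 1401 (0.00 ± 0.13).

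The HSP40 partners of BiP split by sign. Dnajb11 (ERdj3) lay at 2016 ± 37 in the wildtype and 2159 ± 101 in the deficient arrays (0.10 ± 0.10). Dnajc3 (P58IPK), which is also known as an inhibitor of PERK, lay at 2093 ± 32 and 1998 ± 85 (-0.07 ± 0.10), and Dnajb9 (ERdj4), a known target of spliced XBP1, at 648 ± 60 and 613 ± 23 (-0.07 ± 0.13). Sdf2l1, a stress-induced partner of these co-chaperones, gave 4402 and 4050 against 5199 and 4333. Its difference of 0.17 ± 0.11 rested on deficient replicate 1, as deficient replicate 2 fell between the wildtype arrays.

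Protein disulphide isomerases, which form and reshuffle disulphide bonds, held the smallest p-values among the members. Pdia3 (ERp57), which works with the lectin chaperones and in loading MHC class I, gave 7869 and 7541 in the wildtype and 9051 and 8232 in the deficient arrays. Both deficient arrays lay above both wildtype arrays, with a difference of 0.16 ± 0.09 and an interval from -0.04 to 0.37 (unadjusted p = 0.107, adjusted p = 0.956). Pdia4 (ERp72) gave 1816 and 1828 against 2113 and 2009, likewise without overlap (0.18 ± 0.10, adjusted p = 0.960). Pdia6, the third of these enzymes, gave 5731 and 6045 against 6369 and 5416, where the deficient arrays enclosed the wildtype pair; it lay at 5888 ± 222 in the wildtype and 5893 ± 674 in the deficient arrays.

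The lectin chaperones hold glycoproteins in the ER until they are folded. Canx, the membrane-bound calnexin, gave 17084 and 16286 in the wildtype and 15482 and 15012 in the deficient arrays. Here both deficient arrays lay below, with a difference of -0.13 ± 0.08 and an interval from -0.32 to 0.06 (adjusted p = 0.973). Calr, its soluble relative calreticulin, gave 9808 and 11075 against 11131 and 10249 (0.04 ± 0.10), and its genotypes overlapped.

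Genes of ER-associated degradation, which return misfolded proteins to the cytosol, also split. Sel1l, the adaptor of the ubiquitin ligase HRD1, gave 2888 and 3401 in the wildtype and 2756 and 2824 in the deficient arrays. Both deficient arrays lay below, but the difference of -0.17 ± 0.11 was smaller than the 0.23 between the wildtype arrays (adjusted p = 0.973). Herpud1, a stress-induced member of the same complex, gave 2507 and 3098 against 3294 and 2720 (0.10 ± 0.14). Edem1, which marks glycoproteins for disposal, gave 2583 and 2397 against 2802 and 2423 (0.07 ± 0.11). For both genes the spread within a genotype exceeded the difference between them.

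The regulators gave overlapping genotypes in the probe sets used, while some of their other probe sets, described later, did not overlap. Ern1, which encodes the sensor IRE1, gave 280 and 321 in the wildtype and 334 and 287 in the deficient arrays (0.04 ± 0.17). Atf6, the sensor that is cleaved into a transcription factor, gave 489 and 655 against 614 and 541 (0.02 ± 0.17). Xbp1, the transcription factor made after IRE1 has spliced its messenger, gave 15460 and 18439 against 17184 and 15969 (-0.03 ± 0.10, adjusted p = 0.995). The probe sets do not separate spliced from unspliced Xbp1, and activation of these sensors, which takes place on the protein, was not measured. Manf and Creld2 encode proteins that the stressed ER releases. Manf gave 7470 and 5747 against 7568 and 7033 (0.15 ± 0.13), and Creld2 gave 1704 and 1528 against 1929 and 1540 (0.09 ± 0.13).

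The arrays of one genotype lay wholly to one side of the other for 11 of the 32 genes, or 34.4%, beside 33.6% of all tested genes. In 8 of them the deficient arrays lay higher (Hspa8, Hspa4, Hsph1, Dnajb1, Hspe1, Dnajb11, Pdia3 and Pdia4; background 15.9%) and in 3 lower (Dnajc3, Canx and Sel1l; background 17.7%). In 26 of the 32 genes the difference between genotypes was smaller than the larger of the differences between arrays of a genotype, which was so for 78.1% of all tested genes. The shares in either direction were thus close to those of the whole table, while by direction the members had more genes on the higher side and fewer on the lower side; no test was made of that split.

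Arrays of the same genotype also differed in one direction for most ER genes. In the deficient pair, replicate 1 lay above replicate 2 in 19 of the 20 ER genes, Sel1l being the exception, and the median difference (replicate 2 minus replicate 1) was -0.13. Among all tested genes, replicate 1 lay above in 51.2%, and among the 12 other members in 5. It did so in 33 of the 51 further ER genes and in 27 of the 35 further cytosolic and mitochondrial chaperones described later, so the order of these arrays is not shown to be particular to ER genes. In the wildtype pair the 20 genes divided, with replicate 2 higher in 11. All 3 regulators (Ern1, Atf6 and Xbp1) together with Hspa5, Calr and Herpud1 were higher in wildtype replicate 2, while Hsp90b1, Hyou1, Sdf2l1, Manf and Creld2 were higher in wildtype replicate 1. The largest of these differences were 0.41 for Atf6 and -0.38 for Manf. The genes vary together here, so the counts are of 2 pairs of arrays and not of 20 independent genes; this pattern was noticed in the data and not tested.

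**Figure D3:**
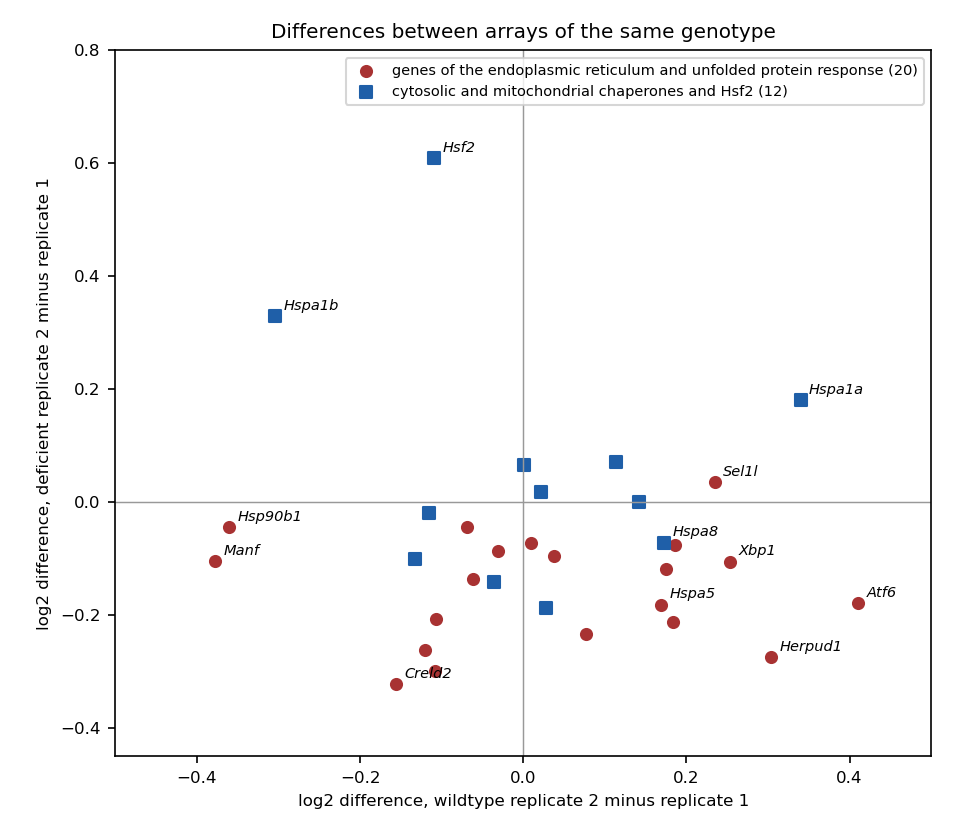
Log2 difference between the 2 wildtype arrays (horizontal axis) and between the 2 deficient arrays (vertical axis), 1 point per gene, for the 20 ER genes (red circles) and the other 12 (blue squares). All red circles but Sel1l lie below the horizontal line, while they spread to both sides of the vertical line.

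The ratio of 3' to 5' signal of the transferrin receptor control, a sign of RNA quality, was 2.57 ± 0.24 in the wildtype and 2.07 ± 0.22 in the deficient arrays, without overlap, and in each genotype it was lower in replicate 1 (1.92 against 2.23 in the deficient pair). The ratios of the Gapdh control (0.79 ± 0.02 and 0.76 ± 0.02) and the Actb control (1.24 ± 0.10 and 1.20 ± 0.08) differed less between genotypes. They were likewise lower in replicate 1 of each genotype. The part of these ratios in the differences between arrays of the ER genes was not tested.

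Other probe sets of the same genes gave a second reading, since 25 of the 32 genes have more than 1 past the filter. Of the 51 other probe sets, 21 lay higher and 30 lower in the deficient arrays, and 28 of the 51 had the sign of the probe set used. With limma, 0 of all 83 passed when every probe set was tested, and 3 had an unadjusted p below 0.05, all of them lower and all from dimmer probe sets. In that fit 0.171% of all 22809 probe sets passed and 5.52% had an unadjusted p below 0.05. These belonged to Hspa8 (-0.54 ± 0.17, from 369 to 251), Ern1 (-0.68 ± 0.27, from 107 to 61.9) and Hspa9 (-1.08 ± 0.46, from 64.0 to 24.0, near background). The probe sets used for these genes gave 0.16, 0.04 and -0.07. For Xbp1 all 4 probe sets lay lower, between -0.18 and -0.03, and its second bright probe set gave 16041 and 17808 against 15110 and 15038 (-0.16 ± 0.09). For Atf6 all 3 probe sets lay higher, between 0.02 and 0.30. The highest of them gave 366 and 369 against 486 and 428, without overlap (0.30 ± 0.15). The brightest Hspa8 probe set is of a class (x_at) whose probes can match other transcripts, and another of its probe sets read 18313 and 8677 within the wildtype pair. Hspa1a, Hspd1, Dnajb9, Dnajb11, Sdf2l1, Manf and Creld2 have only 1 probe set.

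**Figure D4:**
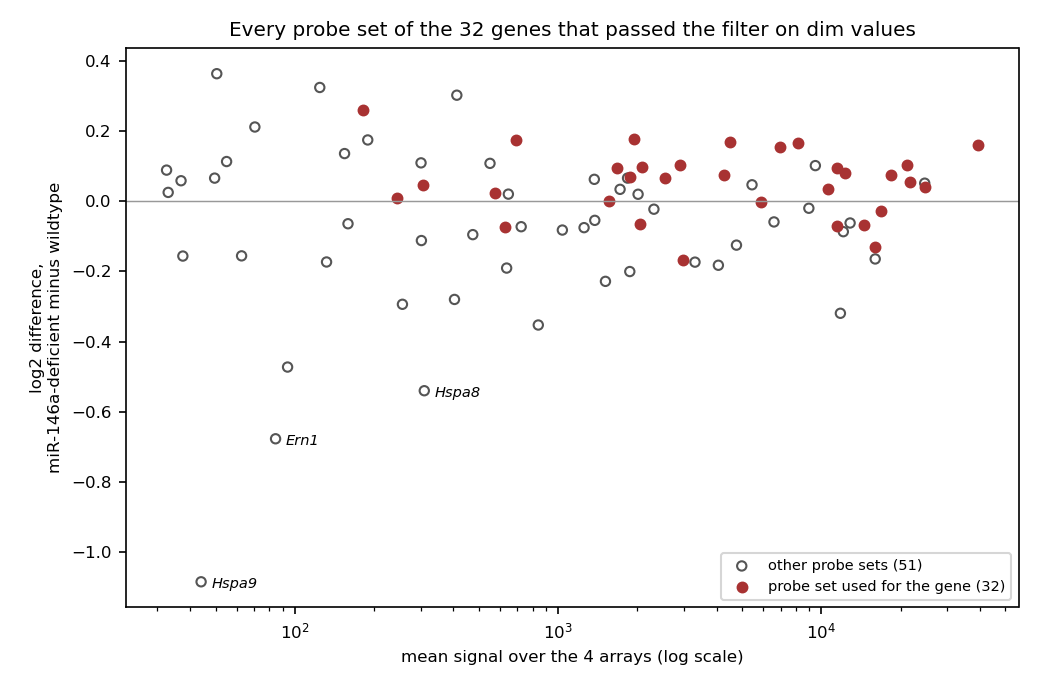
Log2 difference (miR-146a-deficient minus wildtype, vertical axis) against mean signal over the 4 arrays (horizontal axis, log scale) for the 83 probe sets of the 32 genes that passed the filter. The 32 probe sets used lie between -0.17 and 0.26. The 3 named points had an unadjusted p below 0.05 with limma, and each is dimmer than the probe set used for its gene.

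Further genes of the same pathways gave the same count. Of 35 further cytosolic and mitochondrial chaperones (36 listed), 0 passed and 0 had an unadjusted p below 0.05, with a median difference of 0.02. They include the cytosolic chaperonin subunits, of which Cct2 lay at 24577 ± 313 and 25210 ± 1469, and the small heat shock protein Hspb8, which had the lowest value (-0.57 ± 0.35, from 86.5 ± 21.5 to 54.1 ± 21.0). Of 51 further ER folding and unfolded protein response genes (55 listed), 0 passed and 0 had an unadjusted p below 0.05, with a median of 0.02. The following are named after their values were seen. Eif2ak3, which encodes PERK, had the smallest p among them, at 804 and 845 in the wildtype and 1138 and 900 in the deficient arrays (0.29 ± 0.14, interval from -0.03 to 0.61, unadjusted p = 0.0679, adjusted p = 0.951). Its downstream factor Atf4 gave 11321 and 13175 against 13439 and 11272 (0.01 ± 0.11). Ddit3 (CHOP), the factor linked to cell death under ER stress, gave 2738 and 4119 against 2837 and 2815, so that wildtype replicate 2 stood apart (-0.25 ± 0.17). Without wildtype replicate 1, and hence against that high array alone, Ddit3 was called lower (-0.54, adjusted p = 0.0393). Derl3, Ero1b and Syvn1, whose promoters also hold the element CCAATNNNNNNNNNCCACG, differed by -0.26 ± 0.33, -0.03 ± 0.15 and -0.12 ± 0.13.

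B cell transcripts, by contrast, were higher in the deficient arrays. Their values are set beside those of the ER genes because plasma cells, of the B lineage, have the most developed ER folding machinery. Of 16 tested B cell markers (19 listed), 5 passed, all higher, and the arrays did not overlap for any of the 16; their median difference was 1.27. The 5 were Ms4a1, Blnk, Cd22, H2-Aa and H2-Eb1. H2-Aa and H2-Eb1 are MHC class II genes, which are not confined to B cells. The summed signal of the 16 markers ran from 8587 to 12288 in the wildtype and from 24633 to 25289 in the deficient arrays. That sum includes H2-Aa, H2-Eb1, H2-Ab1 and Cd74, so it is not specific to B cells. Pax5 and Fcrla were below the filter. Of 14 plasma cell markers (17 listed), 4 passed and were higher, with a median of 0.10 and summed signals of 21032 to 25869 against 27273 to 28144. The brightest genes in that sum were Ssr4 (means 9296 in the wildtype and 9940 in the deficient arrays) and Irf4 (7229 and 6475). Mzb1 had the largest rise in signal (1196 to 4457), so the sum does not stand for the markers alike. The 4 were Iglv1 (2.24 ± 0.31) and Igk (1.49 ± 0.20), which are immunoglobulin light chain genes, Pou2af1 (1.70 ± 0.24), a B cell transcription coactivator, and Mzb1, a B-lineage ER protein that assists GRP94 (1065 and 1328 against 4529 and 4385; 1.89 ± 0.12, adjusted p = 0.000881). Jchain, which joins secreted antibodies into polymers, had 1.27 ± 0.28 (adjusted p = 0.275). Hsp90b1, the gene of GRP94 itself, had -0.07 ± 0.12. Sdc1, the plasma cell surface marker, read 398 and 349 against 225 and 282 (-0.54 ± 0.18, adjusted p = 0.686). Fkbp11, Txndc5 and Ssr4, secretory genes abundant in plasma cells, had differences of -0.01, 0.10 and 0.11. The part of B cell transcripts in the values of the chaperone genes was not tested. Of 14 dendritic cell and macrophage markers (23 listed), 8 lay higher and 6 lower in the deficient arrays, with a median of 0.19. The 3 that passed, all higher, were Ccl22 (1.89 ± 0.16), Ly86 (1.87 ± 0.24) and Cybb (2.25 ± 0.23). The lower ones included Lyz2 (-0.52 ± 0.37) and Adgre1 (-0.47 ± 0.37). Summed signals of the 14 were 9587 to 10849 against 12586 to 13014. Of 8 CD8 and NK cell markers (10 listed), 0 passed and 4 had an unadjusted p below 0.05, all higher, with summed signals of 7659 to 8236 against 10707 to 12098.

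**Figure D5:**
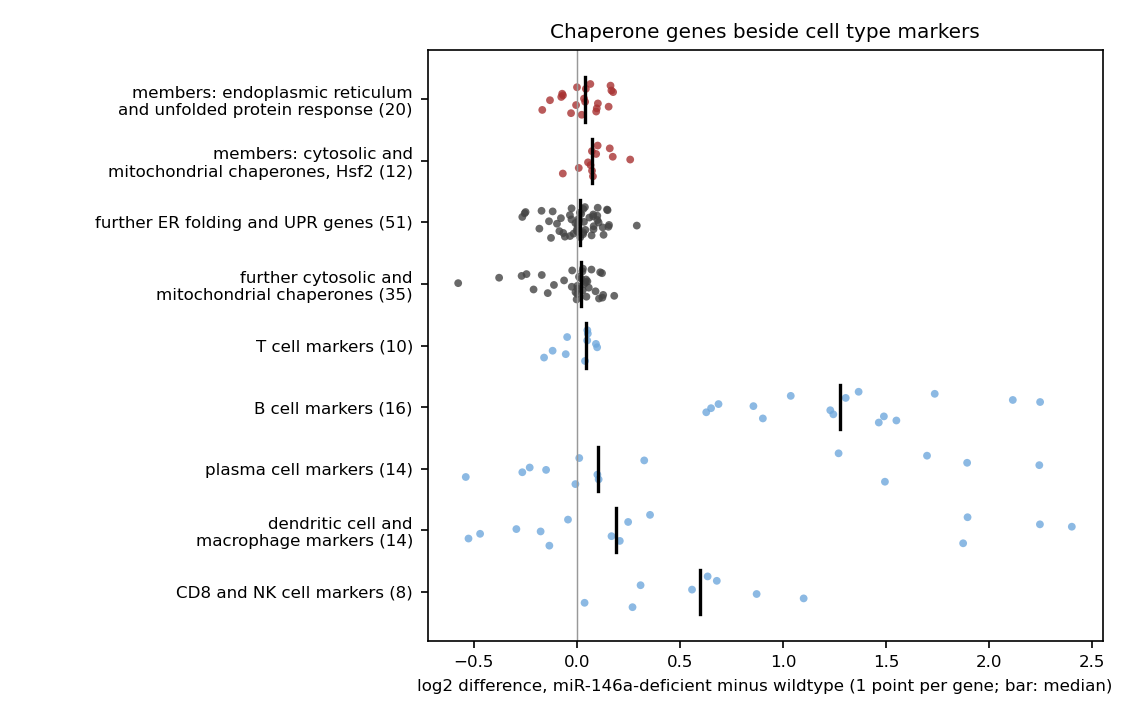
Log2 difference (miR-146a-deficient minus wildtype, horizontal axis) of each tested gene in the lists named on the vertical axis, with the number of genes in parentheses and the median as a bar. Chaperone and T cell genes lie around 0, and the B cell markers all lie above it, with a median of 1.27.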

How the data were processed

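Per the submitters' processing notes, which list MAS5 and Transcriptome Analysis Console without versions, the deposited values are MAS5 signals, an intensity on a linear scale for every probe set. Their 2% trimmed mean is 500.0 on each array, so the authors had already scaled them. Biotin-labelled RNA from 100 ng per sample was hybridised, per the labels. MAS5 detection calls and scan batches were not used here. Gene names came from the platform annotation, and probe sets with several names or none were left out. A pseudocount of 14.7, the 25th percentile of the signals, was added before taking log2, which slightly understates folds of the dimmest members. Each gene was read from its brightest probe set by mean log2, which for all 32 members was also the brightest by mean signal. Genes with a mean log2 of at least 5.48, the 40th percentile over probe sets, were tested with limma 3.58.1 in R 4.3.3 (lmFit, eBayes with an intensity trend; two-sided, Benjamini-Hochberg over 12821 genes, threshold 0.05). Intervals used the 8.60 degrees of freedom of that fit, of which 2 came from the arrays. The fit was also run on simulated data in which genes varied independently, with a spread of the form limma assumes. That run cannot show how the fit does where genes vary together. Figures were drawn with matplotlib 3.10.9.

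Every member was named. Values on each array were planned for the brightest member of each role and for any member with an unadjusted p below 0.05, of which there were 0; the array values of other members were added after they were seen. The members and lists were chosen with earlier results of these data known. The alternatives covered the pseudocount, the filter, scaling, the choice of probe set, the variance prior, the replicate number as a block and each array left out.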

Additional observations from a re-analysis of the deposited data

How the results depend on the processing

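Of 480 differences of the 32 genes under 15 alternatives, 440 kept their sign and 40 did not. Many of the 440 could not turn. Changing the filter, the variance prior or the replicate block leaves each member's difference as it was. So does choosing by mean signal or fitting every probe set, where the same probe set was read. The 40 turns all fell under the other alternatives. With all arrays, 0 of the 32 passed with limma in any alternative, and the smallest adjusted p was 0.872. The count over all genes, 23, was 2 with no filter, 51 after median centring, 14 with averaged probe sets, 39 with every probe set, 0 without the intensity trend (769 at an unadjusted p below 0.05) and 14 with the replicate number as a block, where 0 of the 32 genes passed. Same-numbered arrays deviated together only weakly (r = 0.050 across genes), and the labels name no shared litter or batch. The ratios of 3' to 5' signal of the Gapdh, Actb and transferrin receptor controls were lower in replicate 1 of each genotype. Of the 10 T cell markers, replicate 2 was higher for 10 in the wildtype pair and for 9 in the deficient pair. Apart from that block fit and that correlation, a batch shared by replicate number was not tested. The count was 99 and 95 without wildtype replicate 1 or 2 and 51 and 27 without deficient replicate 1 or 2. The median of the 32 genes, 0.07, was 0.15 after median centring (all tested genes 0.07) and ran from -0.0098 (without deficient replicate 1) to 0.11 (without deficient replicate 2). Of the further ER genes, 0 to 1 passed, the 1 being Ddit3 without wildtype replicate 1.

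Signs turned under quantile normalization for Hspa5 (-0.025) and Calr (-0.0042). Median centring turned Hspa9 (0.016), Hsp90b1 (0.013), Dnajb9 (0.0082), Dnajc3 (0.016), Pdia6 (0.080) and Xbp1 (0.056). Averaged probe sets turned Hspa8 (-0.16), Hspa4 (-0.23), Dnaja1 (-0.0068), Hspe1 (-0.0066), Hspa5 (-0.083), Hyou1 (-0.076), Pdia6 (0.055) and Ern1 (-0.21). Without 1 array at a time, differences ran from -0.012 to 0.12 for Hsp90aa1, -0.29 to 0.31 for Hsf2, -0.050 to 0.13 for Hspa5, -0.25 to 0.11 for Hsp90b1, -0.15 to 0.15 for Hyou1, -0.17 to 0.018 for Dnajb9, -0.12 to 0.11 for Pdia6, -0.052 to 0.12 for Calr, -0.049 to 0.25 for Herpud1, -0.038 to 0.17 for Edem1, -0.062 to 0.15 for Ern1, -0.18 to 0.23 for Atf6, -0.15 to 0.10 for Xbp1, -0.034 to 0.34 for Manf and -0.067 to 0.26 for Creld2. The cause was not tested. Leaving out an array leaves 1 in that genotype, which is assumed to vary like the other. With 2 arrays a genotype, small differences could not be resolved.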

Other observations

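The ER stress response element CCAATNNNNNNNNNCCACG was found in the promoters of 35 genes in all, of which 13 were tested. With limma, 0 of the 13 passed and 0 had an unadjusted p below 0.05. Their median difference between genotypes was -0.03, with a range from -0.26 (Derl3) to 0.09 (Creld2). Outside the members the tested ones were Adcy3, Alg12, Derl3, Ero1b, Pan2 and Syvn1, with a median of -0.07. Of these, Derl3, Ero1b and Syvn1 are among the further ER genes described above.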
